A study of Mus musculus with 21 samples.

Results

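The genes Cd22, Cd72, Btla, Fcgr2b, Lax1, Ptpn6 and Inpp5d encode receptors, an adaptor and phosphatases that restrain signalling from the B-cell receptor. The 7 were chosen with earlier results of these data known. Their counts and medians, set beside those of all probe sets, therefore describe them and are no independent test. They were taken by name, as every probe set of the array whose platform gene symbol is one of the 7. This gave 14 of the 45037 probe sets that are not controls, and 7 of the 18193 genes with a probe set. Cd22, Ptpn6 and Inpp5d had 2 probe sets each, Fcgr2b had 5, and Cd72, Btla and Lax1 had 1 each. A gene with several is represented by the probe set that was brightest over all arrays. The others enter the counts of probe sets and are given beside it for some comparisons. The representing ones are 1419768_at for Cd22, 1426112_a_at for Cd72, 1455656_at for Btla, 1435477_s_at for Fcgr2b, 1438687_at for Lax1, 1460188_at for Ptpn6 and 1418110_a_at for Inpp5d.

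The study profiled mouse cells of the B lineage on 21 Affymetrix arrays, in 7 groups of 3, and its title names cooperation of C/EBPβ with loss of the adaptor BLNK in pre-B leukaemia. Marrow cells positive for B220, a surface protein of the B lineage, were taken with a cell sorter from mice with both a Cebpb LAP transgene and a Blnk knockout (LAP knockout), from Blnk knockout mice (knockout), from Cebpb LAP transgenic mice (LAP) and from wild-type mice. LAP names an activating form of C/EBPβ, a transcription factor of myeloid and other cells. The remaining groups were LB31, 1 pre-B leukaemia cell line from a Blnk knockout mouse, infected with a pMY retrovirus that carried Blnk (BLNK), a loss-of-function form of Blnk (YF) or no insert (empty vector). All LB31 cells therefore lack the endogenous gene by label and were grown with 5 ng/ml of interleukin 7. Neither the promoter driving the LAP transgene nor the age of the mice is stated in the labels. Nothing says that arrays of a group came from separate mice or cultures, so the p-values reflect the spread among these arrays alone, and that spread may be technical.

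The inhibitory receptors of B cells carry short tyrosine motifs in their tails. When these are phosphorylated, they recruit phosphatases of the SHP and SHIP families, which undo the phosphorylation of proteins or of membrane lipids and so weaken the signal of the B-cell receptor or the pre-B-cell receptor. CD22, CD72 and BTLA mainly use the protein phosphatase SHP-1, encoded by Ptpn6, and the IgG receptor FcγRIIB, encoded by Fcgr2b, uses the lipid phosphatase SHIP-1, encoded by Inpp5d. Lax1 encodes LAX, a transmembrane adaptor that limits antigen receptor signalling. Ptpn6 and Inpp5d are used throughout blood cells, Fcgr2b also in myeloid cells, and Btla is best known from mature lymphocytes.

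Values below are log2 of the deposited signal plus 4, with all arrays brought to the same distribution by quantile normalization, and a change is a difference of such values, tested with limma and called at an adjusted p under 0.05 over all probe sets tested. Adding 4 understates the changes of dim probe sets. Levels are not comparable between probe sets. The share of all probe sets whose arrays did not overlap between groups was not counted, so a lack of overlap below only describes the gene named. The deposited array medians ran from 27.8 to 31.4 in LAP knockout, 26.8 to 30.1 in knockout, 20.9 to 21.4 in LAP and 19.6 to 23.7 in wild-type marrow, and from 15.3 to 19.5 in LB31. The brightest Cebpb probe set averaged 9.90 in LAP knockout, 5.02 in knockout, 10.05 in LAP and 5.43 in wild-type marrow. In LB31, for which the labels name no LAP transgene, it averaged 10.11 in BLNK, 10.09 in YF and 10.22 in empty-vector cells, near the level of the 2 transgenic marrow groups. The second Cebpb probe set averaged 7.04 to 8.31 over the marrow groups and 4.62 to 5.02 over the LB31 groups. The only Blnk probe set did not follow the labels: it averaged 12.03 in LAP knockout and 12.37 in knockout, against 12.44 in wild-type marrow, and 8.56 in BLNK and 9.40 in YF, against 9.63 in empty-vector cells. Its position against the deletion and the inserted cDNA is not stated, so it checks nothing. Groups are therefore named as labelled, and each direction below rests on the labels. Plasmacytoid dendritic cells also carry B220, and their 5 markers averaged 6.998 to 7.88 in LAP knockout, 8.98 to 9.47 in knockout, 8.11 to 8.28 in LAP and 8.65 to 8.99 in wild-type marrow. T and NK cell markers averaged 4.87 to 5.73 in marrow and 2.79 to 3.70 in LB31. In LB31 the neutrophil markers averaged 2.86 to 4.03 and the monocyte markers 3.79 to 4.48. LAP array 3 stood apart, with a mean of 12.11 over 7 neutrophil markers, against 10.65 and 10.15 on the other LAP arrays and 9.95 to 10.36 on wild-type arrays.

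Promoter windows of 300 bases, 250 before the annotated start and 50 after it, were read from RefSeq (GRCm38.p6), and all 7 genes matched, Lax1 with 2 windows. They were searched on both strands for TTGCNNAA, a C/EBP site, GAGGAA, a core bound by PU.1 and other ETS factors, and CAGGTG, an E-box of the kind E2A binds. None of the 8 windows held the C/EBP letters, against 10.8% of all 32851 windows. GAGGAA was in 4 of the 8, in Cd72, Btla, 1 of the Lax1 windows and Inpp5d, against 28.3% of all windows. CAGGTG was in Cd22 and Ptpn6, against 20.2% of all windows. The windows of the gene with the largest change in marrow, Btla, of Ptpn6, and of Inpp5d, which moved the other way, are shown 5′ to 3′ with the matches in capitals. They lie at chr16:45224087-45224386 on the plus strand, chr6:124738660-124738959 on the minus strand and chr1:87620062-87620361 on the plus strand. The Btla matches are adjacent and begin 24 and 18 bases before the start, the Ptpn6 match begins 124 bases before it, and those of Inpp5d begin 20 bases before it and, on the other strand, at base 3 after it. A match describes letters in the window and says nothing of binding.
Btla: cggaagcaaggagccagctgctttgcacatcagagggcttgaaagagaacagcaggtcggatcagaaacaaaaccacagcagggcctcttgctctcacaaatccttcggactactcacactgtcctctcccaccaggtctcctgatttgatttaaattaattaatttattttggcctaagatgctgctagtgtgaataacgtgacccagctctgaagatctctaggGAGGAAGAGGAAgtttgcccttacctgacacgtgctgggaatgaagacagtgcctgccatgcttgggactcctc
Ptpn6: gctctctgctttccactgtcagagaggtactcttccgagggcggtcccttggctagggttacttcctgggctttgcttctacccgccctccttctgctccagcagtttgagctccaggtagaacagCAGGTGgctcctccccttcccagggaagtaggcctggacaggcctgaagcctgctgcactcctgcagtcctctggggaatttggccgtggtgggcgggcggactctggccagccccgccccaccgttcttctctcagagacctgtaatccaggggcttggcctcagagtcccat
Inpp5d: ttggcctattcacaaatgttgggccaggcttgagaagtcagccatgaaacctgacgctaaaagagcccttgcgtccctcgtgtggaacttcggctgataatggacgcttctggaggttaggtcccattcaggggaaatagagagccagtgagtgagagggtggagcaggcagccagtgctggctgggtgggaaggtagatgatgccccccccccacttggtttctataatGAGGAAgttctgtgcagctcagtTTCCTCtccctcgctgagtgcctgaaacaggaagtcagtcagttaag

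Of the 14 probe sets, 13 were tested in every comparison. The fifth Fcgr2b probe set, 1447622_at, was below its array's 40th percentile on all 21 arrays, with group means between 2.07 and 2.33, and was not tested.

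**Figure D1:**
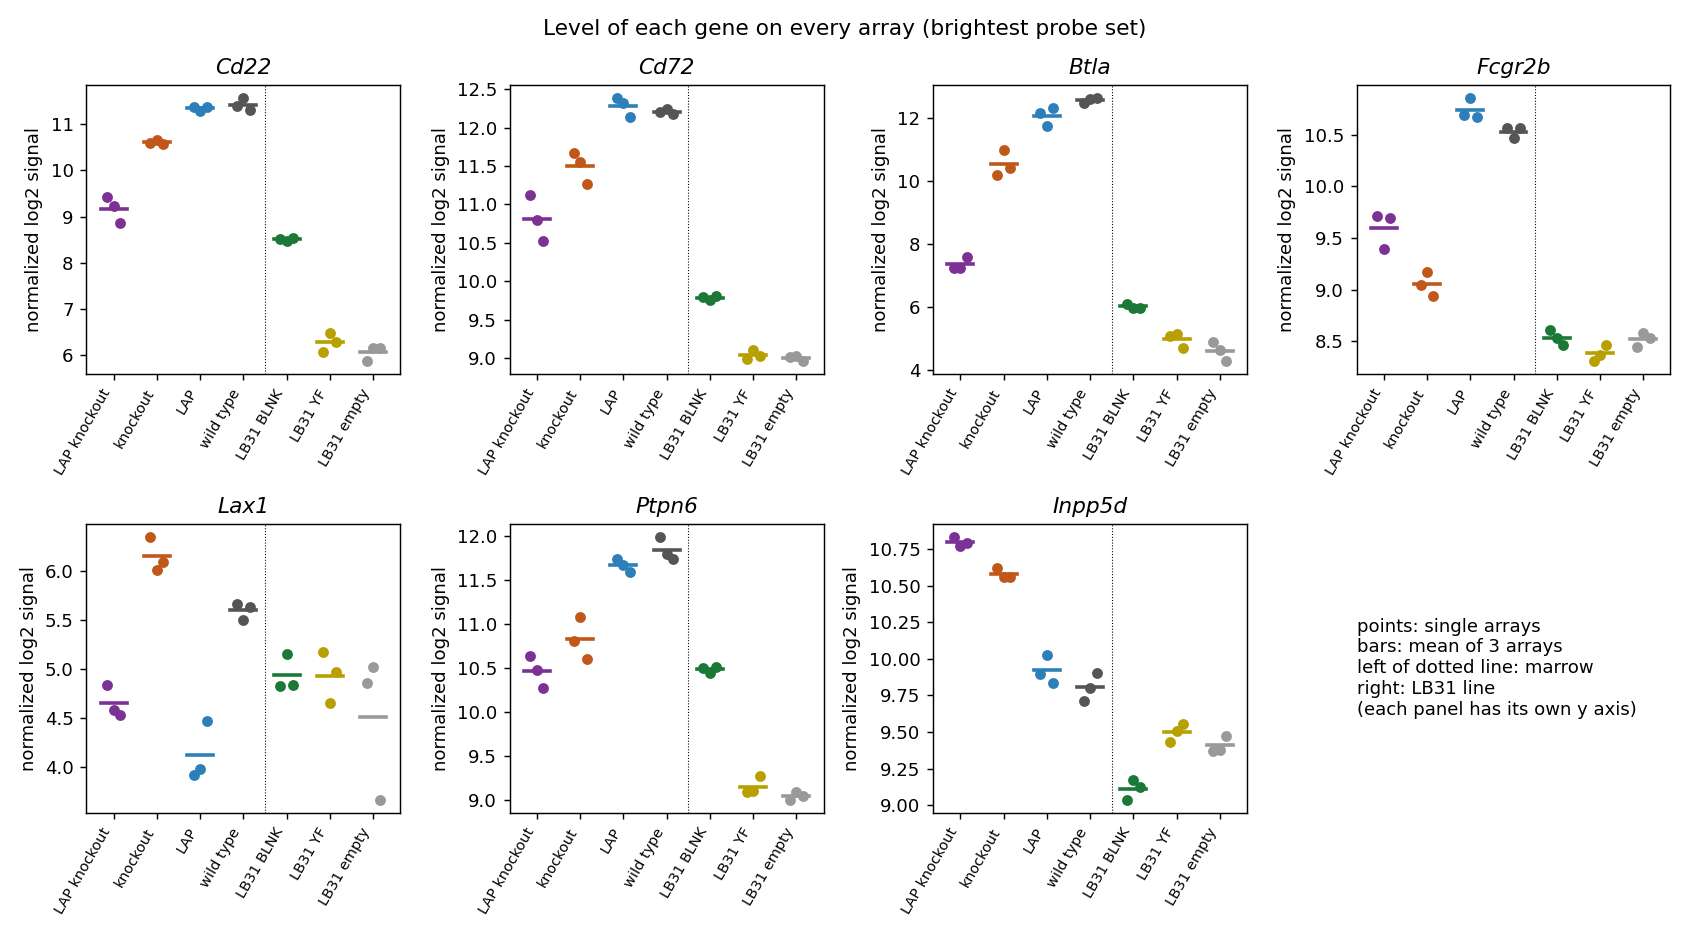
Level of each gene on every array, by its brightest probe set. The y axis is the normalized log2 signal, points are single arrays and bars are means of 3, and each panel has its own scale. Btla runs over the widest range, with means from 12.57 in wild-type marrow to 4.61 in empty-vector LB31 cells, and 7.37 in LAP knockout marrow.

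The 7 groups stood in a similar order for 4 of the genes and in other orders for Fcgr2b, Lax1 and Inpp5d. Cd22 averaged 9.17 ± 0.28 in LAP knockout, 10.60 ± 0.04 in knockout, 11.34 ± 0.05 in LAP and 11.42 ± 0.13 in wild-type marrow, and 8.51 ± 0.03 in BLNK, 6.28 ± 0.21 in YF and 6.07 ± 0.17 in empty-vector LB31 cells (SD, n = 3 each, as for all means below). Neighbouring groups in its order overlapped only between LAP and wild type and between YF and empty vector. The same was true of Cd72, where LAP stood above wild type. For Btla only YF and empty vector overlapped. Ptpn6 overlapped between LAP and wild type and between BLNK-labelled LB31 and LAP knockout marrow. Fcgr2b was highest in LAP and wild-type marrow, was higher in LAP knockout than in knockout marrow, and overlapped along the chain of BLNK, empty-vector and YF cells. Lax1 was close to the dim end of the arrays and was highest in knockout marrow, with the 5 lowest groups overlapping each with the next. Inpp5d ran the other way in marrow, highest in LAP knockout and then knockout, with an overlap between LAP and wild type and another between YF and empty vector.

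The knockout label was first examined without the transgene. By their brightest probe sets, the transcripts of all 4 receptors and of Ptpn6 were lower in knockout than in wild-type marrow, and that of Inpp5d was higher. Of the 13 probe sets, 9 were lower, where 6.45% of all 30128 tested were called lower, and 2 were higher, where 6.24% were called higher. The median member probe set changed by -0.82, against 0.004 over all probe sets. Because the members were chosen with earlier results known, such contrasts here and below are descriptive. In bulk samples, fewer cells of a type and less RNA per cell cannot be told apart.

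Btla, the receptor for the ligand HVEM, had normalized values of 10.18, 11.003 and 10.41 on the knockout arrays, against 12.47, 12.59 and 12.64 on the wild-type arrays. The groups did not overlap, and the change was -2.04 ± 0.19 (SE), 4.10-fold lower, with an adjusted p of 8.78e-06. In the deposited signal these were 1163, 2064 and 1620 in knockout, against 5016, 5242 and 5877 in wild-type marrow. Btla thus had the largest change among the members.

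Fcgr2b, the receptor that binds immune complexes of IgG, had 9.05, 9.17 and 8.94 in knockout, against 10.56, 10.46 and 10.56 in wild-type marrow. Every knockout array was lower, and the change was -1.47 ± 0.10 (adjusted p = 7.87e-07). The 3 other tested probe sets of Fcgr2b were called lower too, by -1.17, -1.14 and -1.42. All tested probe sets of this gene thus moved one way here. Among them 1455332_x_at, at -1.14, carries the x suffix, which Affymetrix gives to probes shared with other sequences.

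Cd22, a sialic acid-binding lectin, had 10.58, 10.65 and 10.58 in knockout, against 11.39, 11.56 and 11.31 in wild-type marrow, a change of -0.82 ± 0.11 (adjusted p = 0.000347). Its second probe set changed by -0.67 (adjusted p = 0.0308), and that call was lost when any 1 array of either group was left out, with adjusted p between 0.0544 and 0.103, and with the values as deposited, at -0.37 (adjusted p = 0.105). Cd72, whose protein binds CD100, had 11.66, 11.56 and 11.26 in knockout, against 12.20, 12.25 and 12.17 in wild-type marrow. Neither gene overlapped between the groups, and Cd72 changed by -0.71 ± 0.13 (adjusted p = 0.00276).

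Ptpn6 had 10.82, 11.09 and 10.61 in knockout, against 11.995, 11.80 and 11.74 in wild-type marrow, with no overlap. It changed by -1.01 ± 0.12 (adjusted p = 7.62e-05). Its second probe set, of the x type that Affymetrix gives to probes shared with other sequences, changed by -0.24 ± 0.12 and was not called (adjusted p = 0.213). The probe sets of Ptpn6 therefore disagree on the size of this change.

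Inpp5d had 10.62, 10.56 and 10.56 in knockout, against 9.72, 9.80 and 9.90 in wild-type marrow. It was higher on every knockout array, by 0.77 ± 0.08 (adjusted p = 1.54e-05), and its second probe set was higher by 0.78 (adjusted p = 0.00307). Lax1 had 6.35, 6.01 and 6.10 in knockout, against 5.66, 5.49 and 5.64 in wild-type marrow. These did not overlap, but the change of 0.55 ± 0.20 was not called (adjusted p = 0.0841). It was called with the values as deposited, at 0.89 (adjusted p = 0.00717), where the median of all probe sets moved by 0.31, and with 16 added before the log, at 0.46 (adjusted p = 0.0475). Over the 13 alternatives run for this value the adjusted p lay between 0.00717 and 0.268.

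Markers of B-cell stages moved with these values. The 7 measured markers of immature and mature B cells averaged 9.35 to 9.77 over the knockout arrays, against 11.02 to 11.19 over the wild-type arrays, and all 7 were called lower. The 7 markers of pro-B and large pre-B cells averaged 11.12 to 11.28 in knockout, against 9.66 to 9.99 in wild-type marrow, with 4 called higher. Of 5 general B-lineage markers 2 were called lower, Cd79b at -0.45 and Ptprc at -0.48, and 0 higher. Neutrophil and monocyte markers were called by limma in neither direction (0 of 7 and 0 of 6, and 0 at an unadjusted p under 0.05). The part of cell composition in the members' changes was not tested.

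**Figure D2:**
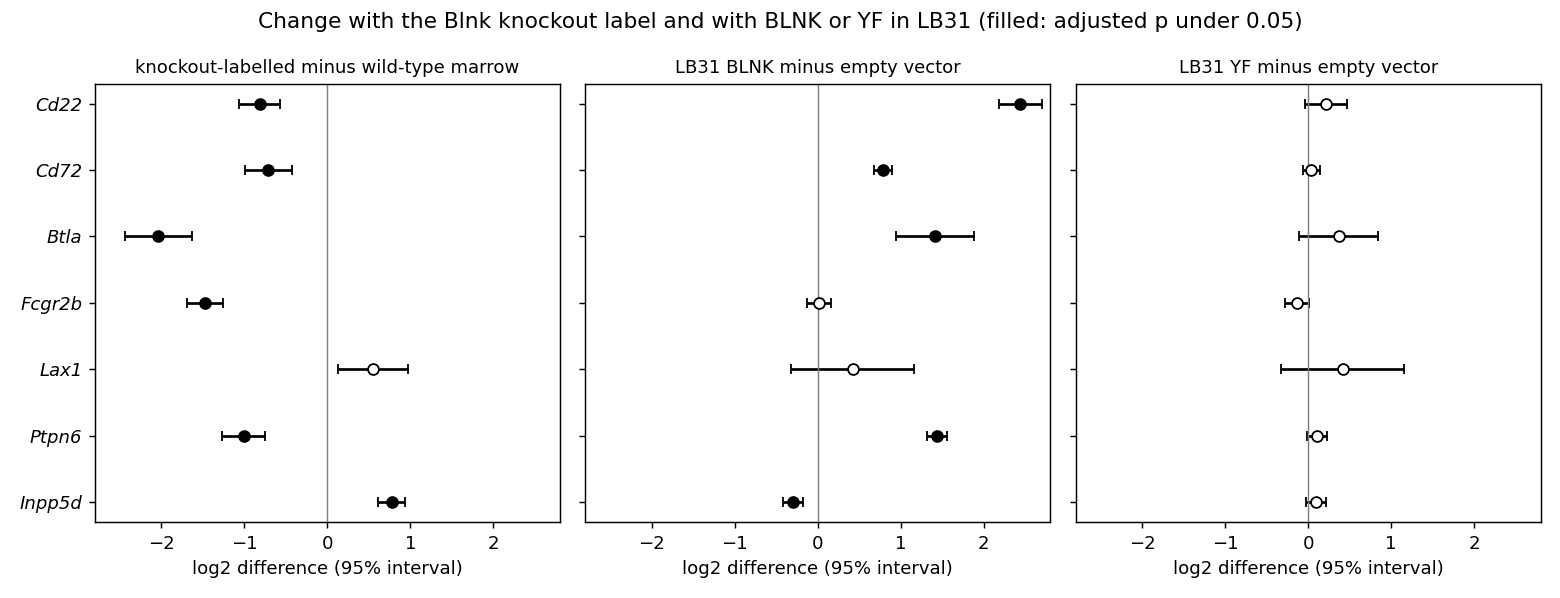
Change of each gene's brightest probe set in knockout against wild-type marrow and in BLNK-labelled or YF-labelled against empty-vector LB31 cells. The x axis is the log2 difference with its unadjusted 95% interval, and filled points have an adjusted p under 0.05; Cd22 lies at -0.82 in marrow and 2.44 with BLNK, and no gene is called with YF.

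The LAP transgene alone gave 1 call among the members. Lax1 was lower, and no other probe set was called, so that 1 of 13 was called lower, where 1.36% of all tested were, and 0 higher, where 1.23% were. By limma, 3 of the 13 had an unadjusted p under 0.05, against 18.6% of all probe sets.

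Lax1 had 3.91, 3.97 and 4.47 on the LAP arrays, against 5.66, 5.49 and 5.64 on the wild-type arrays. Only LAP array 3 lay above its array's 40th percentile, so the LAP level is close to the dim end of the arrays. The change was -1.48 ± 0.20 (adjusted p = 0.00177), and without LAP array 3, the array rich in neutrophil markers, it was -1.65 (adjusted p = 0.00108, with 0.00105 to 0.0147 over all alternatives). Every LAP array was below every wild-type array for Lax1. Of 7 neutrophil and 6 monocyte markers 0 were called by limma in this comparison, and 3 and 4 had an unadjusted p under 0.05. The 5 plasmacytoid dendritic markers averaged 8.11 to 8.28 in LAP, against 8.65 to 8.99 in wild-type marrow. By limma 1 of them was called lower, Ccr9 at -1.29 (adjusted p = 0.0442), 0 were called higher, and 3 had an unadjusted p under 0.05. The part of these cells in the Lax1 change was not tested.

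Btla had 12.15, 11.74 and 12.31 in LAP, against 12.47, 12.59 and 12.64 in wild-type marrow. The groups did not overlap, but the change of -0.50 ± 0.19 was not called (adjusted p = 0.169). For the genes next in order the unadjusted 95% intervals of the change were -0.33 to 0.16 for Cd22, -0.21 to 0.36 for Cd72 and -0.01 to 0.42 for Fcgr2b. The phosphatase intervals were -0.43 to 0.08 for Ptpn6 and -0.05 to 0.28 for Inpp5d. Of the immature and mature B-cell markers, 2 of 7 were called lower, and their mean ran from 10.47 to 10.55 in LAP, against 11.02 to 11.19 in wild-type marrow.

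With both changes, all 13 probe sets were called against wild-type marrow, a comparison that shares its wild-type arrays with the 2 above. In LAP knockout marrow 11 were lower and 2 higher, where 12.6% of all tested were called lower and 12.6% higher. The 2 higher ones were those of Inpp5d. With the values as deposited, the second Ptpn6 probe set lost its call. The median member probe set changed by -0.95, against 0.007 over all.

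Btla had 7.25, 7.25 and 7.61 in LAP knockout marrow, against 12.47, 12.59 and 12.64 in wild-type marrow. It changed by -5.20 ± 0.19, 36.8-fold lower (adjusted p = 3.01e-10). The deposited signals were 175.8, 181.1 and 238.7 in LAP knockout marrow, and thus far below the wild-type ones given above. By p it ranked 25 among the 30128 probe sets tested.

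Cd22 had 9.42, 9.22 and 8.87 in LAP knockout marrow and changed by -2.25 ± 0.11 against wild type (adjusted p = 8.96e-09). Its second probe set changed by -2.06. Cd72 had 11.12, 10.80 and 10.52 and changed by -1.39 ± 0.13 (adjusted p = 3.77e-06). Both genes were below all knockout arrays as well as all wild-type arrays.

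Ptpn6 had 10.64, 10.48 and 10.28 in LAP knockout marrow and changed by -1.38 ± 0.12 against wild type (adjusted p = 1.40e-06), with its second probe set at -0.49 (adjusted p = 0.00671). As deposited that second one was -0.20 (adjusted p = 0.297), where the median of all probe sets moved by 0.33. Inpp5d had 10.83, 10.77 and 10.79 and was higher by 0.99 ± 0.08 (adjusted p = 4.58e-07). Fcgr2b had 9.71, 9.39 and 9.69 and was lower by -0.93 ± 0.10 (adjusted p = 1.22e-05). For all 3 genes the LAP knockout and wild-type arrays did not overlap.

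Lax1 had 4.83, 4.58 and 4.53 in LAP knockout marrow and was lower than in wild type by -0.95 ± 0.20 (adjusted p = 0.0027). It thus lay between the LAP level of 4.12 and the wild-type level of 5.60.

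Markers of other cells and stages moved with these values too. Those of immature and mature B cells averaged 6.47 to 6.94 in LAP knockout, against 11.02 to 11.19 in wild-type marrow, and all 7 were called lower. Neutrophil markers averaged 10.84 to 11.43 in LAP knockout, against 9.95 to 10.36 in wild-type marrow, with no overlap and 2 of 7 called higher. Monocyte and macrophage markers averaged 8.19 to 8.46, against 7.42 to 7.78, with 1 of 6 called higher. Of 5 general B-lineage markers 2 were called lower, Cd79b at -0.82 and Ptprc at -0.80, and 0 higher. Pro-B and large pre-B markers averaged 11.06 to 11.26, against 9.66 to 9.99, with 4 of 7 called higher and 1 lower, and all 5 plasmacytoid dendritic markers were called lower. The part of these cells in the members' changes was not tested.

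Against LAP marrow, LAP knockout marrow had 10 of 13 probe sets lower and 2 higher, where 9.86% of all tested were called lower and 11.3% higher. Btla changed by -4.70 ± 0.19, Cd22 by -2.17 ± 0.11, Cd72 by -1.47 ± 0.13, Ptpn6 by -1.21 ± 0.12 and Fcgr2b by -1.14 ± 0.10, and Inpp5d was higher by 0.88 ± 0.08, all with adjusted p under 0.05. Lax1 was the member not called, at 0.53 ± 0.20 (adjusted p = 0.0728). Without LAP array 3 it was called, at 0.70 (adjusted p = 0.0202). As deposited it was called at 0.95 (adjusted p = 0.00235), where the median of all probe sets moved by 0.40, and over its alternatives the adjusted p lay between 0.00235 and 0.207.

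Of the 10 probe sets lower than in LAP marrow, 2 lost their call under an alternative. The second Ptpn6 probe set, at -0.45 (adjusted p = 0.0125), was -0.04 as deposited (adjusted p = 0.873), and was not called without LAP knockout array 1 (adjusted p = 0.0543) or LAP array 1 (adjusted p = 0.0635). The Fcgr2b probe set 1455332_x_at, at -1.06 (adjusted p = 0.0058), was -0.61 as deposited (adjusted p = 0.0663). In the same comparison all 7 markers of immature and mature B cells were lower, with a mean of 6.47 to 6.94 in LAP knockout, against 10.47 to 10.55 in LAP marrow. By limma 0 of the 13 neutrophil and monocyte markers were called, and 0 had an unadjusted p under 0.05. Of the 5 plasmacytoid dendritic markers 3 were called lower and 0 higher, with a median of -0.63. The part of these cells in the members' changes was not tested.

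The effect of the LAP transgene in knockout-labelled marrow was given by LAP knockout against knockout. Here 5 of 13 probe sets were lower, where 3.17% of all tested were called lower, and 2 were higher, where 2.03% were. The lower ones were Btla, both of Cd22, Cd72 and Lax1, and the higher ones were 2 of Fcgr2b. Ptpn6 and Inpp5d were not called.

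Btla was 8.97-fold lower, a change of -3.16 ± 0.19 (adjusted p = 1.88e-07), with 7.25, 7.25 and 7.61 in LAP knockout, against 10.18, 11.003 and 10.41 in knockout marrow. Cd22 changed by -1.43 ± 0.11 (adjusted p = 3.64e-06), with 9.42, 9.22 and 8.87 in LAP knockout, against 10.58, 10.65 and 10.58 in knockout marrow. The groups lay apart in both genes.

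Cd72 changed by -0.68 ± 0.13 (adjusted p = 0.00692) and Lax1 by -1.50 ± 0.20 (adjusted p = 0.000348), each lower on every LAP knockout array. Fcgr2b went the other way, with 9.71, 9.39 and 9.69 in LAP knockout, against 9.05, 9.17 and 8.94 in knockout marrow. Its brightest probe set was higher by 0.54 ± 0.10 (adjusted p = 0.005) and another by 0.65 ± 0.11 (adjusted p = 0.00301). The remaining ones, at 0.32 and -0.04, were not called.

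Ptpn6 changed by -0.37 ± 0.12 (adjusted p = 0.0981) and overlapped between LAP knockout and knockout marrow. It was called without knockout array 3 (-0.49, adjusted p = 0.0221), and over its alternatives the adjusted p lay between 0.0221 and 0.403. Inpp5d did not overlap, at 0.22 ± 0.08, and was not called (adjusted p = 0.132).

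Beside these changes, the markers of immature and mature B cells averaged 6.47 to 6.94 in LAP knockout, against 9.35 to 9.77 in knockout marrow, with all 7 called lower. Monocyte and macrophage markers averaged 8.19 to 8.46 in LAP knockout, against 7.32 to 8.17 in knockout marrow, and neutrophil markers 10.84 to 11.43, against 9.82 to 10.89. By limma 0 of these 13 myeloid markers were called, and 0 had an unadjusted p under 0.05. Pro-B and large pre-B markers averaged 11.06 to 11.26 in LAP knockout, against 11.12 to 11.28 in knockout marrow, with 1 of 7 called lower. The 5 plasmacytoid dendritic markers averaged 6.998 to 7.88 in LAP knockout, against 8.98 to 9.47 in knockout marrow. All 5 were called lower, with a median of -1.73. The part of these cells in the levels of Btla, Cd22, Lax1 or Fcgr2b was not tested.

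Whether the LAP effect differed with the knockout label was tested directly, by subtracting LAP minus wild type from LAP knockout minus knockout. Of the 13 probe sets 3 were lower and 0 higher, where 0.85% of all tested were called lower and 0.329% higher. They were Btla and both probe sets of Cd22. For Btla the difference was -2.66 ± 0.26 (adjusted p = 0.000122). For Cd22 it was -1.35 ± 0.16 (adjusted p = 0.000686), and for its second probe set -1.45 ± 0.26 (adjusted p = 0.0149).

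The second Cd22 probe set lost that call without wild-type array 3 (adjusted p = 0.0558) or knockout array 2 (adjusted p = 0.0509). Cd72 was not called, at -0.75 ± 0.19 (adjusted p = 0.0778), but was without knockout array 3 (-0.87, adjusted p = 0.0261) or LAP knockout array 1 (-0.91, adjusted p = 0.0142). Over all alternatives the adjusted p lay between 0.00154 and 0.0558 for the second Cd22 probe set and between 0.0136 and 0.212 for Cd72. For Lax1 the difference was -0.02 ± 0.28 with an unadjusted 95% interval of -0.62 to 0.57. The intervals were 0.03 to 0.64 for Fcgr2b, -0.56 to 0.16 for Ptpn6 and -0.13 to 0.33 for Inpp5d, none called. All 7 markers of immature and mature B cells were also called lower in this contrast, with a median of -2.04. Of the 5 plasmacytoid dendritic markers 2 were called lower and 0 higher, with a median of -1.1.

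**Figure D3:**
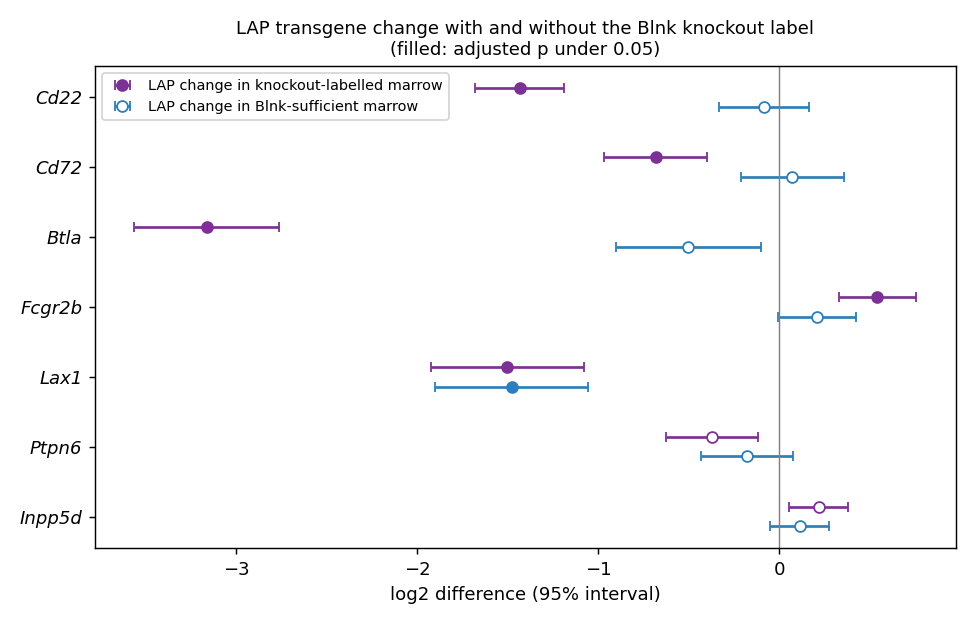
Change with the LAP transgene in knockout-labelled marrow (LAP knockout minus knockout) and without the knockout label (LAP minus wild type). The x axis is the log2 difference of the brightest probe set with its unadjusted 95% interval, and filled points have an adjusted p under 0.05; the pairs lie far apart for Btla (-3.16 and -0.50) and Cd22 (-1.43 and -0.08), and close together for Lax1 (-1.50 and -1.48).

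In LB31 cells, BLNK was compared with the empty vector. The receptors Cd22, Cd72 and Btla and the phosphatase gene Ptpn6 were higher with BLNK, Inpp5d was slightly lower, and Fcgr2b and Lax1 were not called. Of 13 probe sets 6 were higher, where 5.57% of all 29478 tested were called higher, and 1 was lower, where 5.82% were called lower. The median member probe set changed by 0.42, against 0.001 over all.

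Cd22 had 8.52, 8.48 and 8.54 in BLNK cells, against 5.88, 6.17 and 6.16 in empty-vector cells. It was 5.43-fold higher, a change of 2.44 ± 0.12 (adjusted p = 6.39e-08), and its second probe set was higher by 2.34 ± 0.21 (adjusted p = 1.01e-05). The deposited signals were 298.5, 358.6 and 354.4 in BLNK cells, against 51.6, 44.0 and 47.5 in empty-vector cells. The groups stood far apart on both scales.

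Ptpn6 had 10.50, 10.45 and 10.51 in BLNK cells, against 9.01, 9.09 and 9.05 in empty-vector cells. It was 2.71-fold higher, by 1.44 ± 0.05 (adjusted p = 6.24e-09), and the second probe set was higher by 1.03 ± 0.15 (adjusted p = 0.000792). Both probe sets of Ptpn6 were thus called. The spread within each group was small against this difference.

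Cd72 had 9.80, 9.76 and 9.80 in BLNK cells, against 9.01, 9.02 and 8.96 in empty-vector cells, a rise of 0.79 ± 0.05 (adjusted p = 3.91e-07). Btla had 6.12, 5.97 and 5.99 in BLNK cells, against 4.91, 4.63 and 4.30 in empty-vector cells. It was 2.66-fold higher, by 1.41 ± 0.22 (adjusted p = 0.000999). Neither gene overlapped between the groups, and the Btla level in BLNK cells, 6.03, was still below the 7.37 of LAP knockout marrow.

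Inpp5d had 9.04, 9.18 and 9.12 in BLNK cells, against 9.37, 9.38 and 9.48 in empty-vector cells. The groups did not overlap, and the change was -0.30 ± 0.05 (adjusted p = 0.00329). This call was lost with the values as deposited (-0.14, adjusted p = 0.808) and with arrays centred on their medians (-0.12, adjusted p = 0.586), where the median of all probe sets moved by 0.10 and 0.11. Over all its alternatives the adjusted p lay between 0.00203 and 0.808. The second probe set changed by -0.27 and was not called (adjusted p = 0.0554), but was without BLNK array 3 (-0.34, adjusted p = 0.0397).

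Fcgr2b had 8.61, 8.53 and 8.46 in BLNK cells, against 8.44, 8.58 and 8.54 in empty-vector cells. The groups overlapped, and the change of 0.01 had an unadjusted 95% interval of -0.13 to 0.15. Its other tested probe sets changed by -0.11, 0.12 and -0.24 and were not called (adjusted p = 0.452, 0.512 and 0.0663). In the last, 1451941_a_at, every BLNK array was below every empty-vector array. Lax1 had 4.82, 5.15 and 4.83 in BLNK cells, against 4.85, 5.02 and 3.66 in empty-vector cells. It was not called, and its difference of 0.42 was -0.002 without empty-vector array 3.

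Markers of immature and mature B cells were low in LB31, with means of 4.32 to 4.54 in BLNK cells, against 4.36 to 4.58 in empty-vector cells. By limma 0 of the 5 tested were called, 1 had an unadjusted p under 0.05, and Ccr7 was below the 40th percentile on all arrays of both groups. At these dim levels the lack of a call says little. Of the pro-B and large pre-B markers 4 of 5 tested were lower with BLNK, Dntt, which adds bases to antigen receptor joints, by -2.72 (adjusted p = 9.76e-12) and the others by -0.10 to -0.30. Of 5 B-lineage markers, Cd79a and Cd79b, the signalling chains of the B-cell receptor, were lower by -0.51 and -0.45, and Ebf1, a B-lineage transcription factor, was higher by 0.21. Lyz2, a lysozyme gene of myeloid cells, was lower by -2.28 (adjusted p = 9.02e-08), at 5.25 in BLNK cells, against 7.53 in empty-vector cells. Of the plasmacytoid dendritic markers, Irf8 was lower by -0.24 and Bst2 higher by 0.25. The part of these shifts in the rise of Cd22, Cd72, Btla and Ptpn6 was not tested.

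The YF form was called for no member: 0 of 13 were higher, where 0.115% of all tested were called higher, and 0 lower, where 0.112% were called lower. By limma 1 of the 13 had an unadjusted p under 0.05, the second Cd22 probe set, against 14.1% of all tested. Cd22 had 6.08, 6.49 and 6.28 in YF cells, against 5.88, 6.17 and 6.16 in empty-vector cells, and the groups overlapped. The unadjusted 95% intervals of the change were -0.04 to 0.47 for Cd22, -0.07 to 0.14 for Cd72, -0.11 to 0.84 for Btla and -0.28 to 0.01 for Fcgr2b. For Lax1 the interval was -0.32 to 1.16, and for the phosphatase genes it was -0.01 to 0.22 for Ptpn6 and -0.03 to 0.21 for Inpp5d. With arrays centred on their medians, Ptpn6 was called at 0.40 (adjusted p = 0.0383), in a setting where the median of all probe sets moved by 0.21. Its adjusted p over all alternatives lay between 0.0383 and 0.775.

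BLNK and YF cells were also compared directly, with the BLNK arrays shared with the comparison above. Of 13 probe sets 6 were higher in BLNK than in YF cells, where 2.5% of all tested were called higher, and 2 were lower, where 3.84% were called lower. Cd22 was higher by 2.23 ± 0.12 (adjusted p = 3.08e-07), Ptpn6 by 1.33 ± 0.05 (adjusted p = 2.16e-08) and Cd72 by 0.75 ± 0.05 (adjusted p = 1.17e-06). Ptpn6 had 9.09, 9.10 and 9.27 in the YF cells, all below the BLNK values given above, and Cd72 had 8.99, 9.10 and 9.03.

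Btla was 2.06-fold higher in BLNK than in YF cells, with 6.12, 5.97 and 5.99 in BLNK, against 5.09, 5.14 and 4.71 in YF cells (adjusted p = 0.0118). The call was lost without BLNK array 1 (adjusted p = 0.0605) or YF array 3 (adjusted p = 0.0609), and over all alternatives the adjusted p lay between 0.00659 and 0.0624. Inpp5d was lower in BLNK than in YF cells by both probe sets, at -0.39 ± 0.05 (adjusted p = 0.000696) and -0.42 ± 0.08 (adjusted p = 0.00791), the second of which lost its call without YF array 2 (-0.37, adjusted p = 0.0535). Its YF values were 9.43, 9.51 and 9.55, above all 3 BLNK arrays. For Fcgr2b the change was 0.15 (interval 0.01 to 0.29, adjusted p = 0.247) and for Lax1 0.0048 (adjusted p = 0.997).

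The line with the empty vector was last set against marrow that carries the same knockout label. Its Cebpb level of 10.22 lay near the 9.90 of LAP knockout marrow and far above the 5.02 of knockout marrow, so the knockout label is not all that the groups share or differ in. A cultured leukaemia line and sorted marrow differ in much besides, and the values compare these samples only. Against knockout marrow, 10 of 13 probe sets were lower in empty-vector LB31, where 27.6% of all 33764 tested were called lower, and 1 was higher, where 29.3% were called higher. Against LAP knockout marrow 10 were lower and 0 higher, where 27.1% and 28.7% of all tested were called lower and higher.

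Btla was 60.5-fold lower in the line with the empty vector than in knockout marrow, a change of -5.92 ± 0.18 (adjusted p = 1.43e-16), and 6.75-fold lower than in LAP knockout marrow (-2.75 ± 0.18, adjusted p = 2.92e-11). Cd22 changed by -4.54 ± 0.12 against knockout and by -3.10 ± 0.12 against LAP knockout marrow. Cd72 changed by -2.49 and -1.81, and Ptpn6 by -1.79 and -1.42. No array of the line overlapped with either marrow group for these 4 genes. Of the 33764 probe sets tested, 19213 were called against knockout and 18847 against LAP knockout marrow, so large differences were common here.

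Lax1 was lower than in knockout marrow by -1.64 ± 0.28 (adjusted p = 3.01e-05), and against LAP knockout marrow it overlapped, at -0.14 (adjusted p = 0.708). With the values as deposited, where the median of all probe sets moved by -0.44, the change against LAP knockout marrow was called at -0.78 (adjusted p = 0.0222). Inpp5d was lower by -1.17 ± 0.07 and -1.39 ± 0.07 in its brightest probe set, but its second one changed by 0.08 and 0.07 and was not called (adjusted p = 0.616 and 0.637). As deposited that second one was called lower too, by -0.46 against knockout (adjusted p = 0.0324) and -0.47 against LAP knockout marrow (adjusted p = 0.0269). Fcgr2b was lower by -0.53 and -1.08 in its brightest probe set. Another, 1451941_a_at, was higher than in knockout marrow by 0.31 (adjusted p = 0.00928), a call lost without knockout array 1 (adjusted p = 0.0546) and turned to -0.22, not called (adjusted p = 0.229), with the values as deposited. It was lower than in LAP knockout marrow by -0.34 (adjusted p = 0.00476), a call lost with arrays centred on their medians (-0.18, adjusted p = 0.186). The probe set 1435476_a_at was lower than in knockout marrow by -0.32 (adjusted p = 0.00576), and that call was lost with median centring (-0.15, adjusted p = 0.211). After quantile normalization, probe sets of Inpp5d and Fcgr2b thus disagreed between the line and marrow, and how far they did depended on the scaling.

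**Figure D4:**
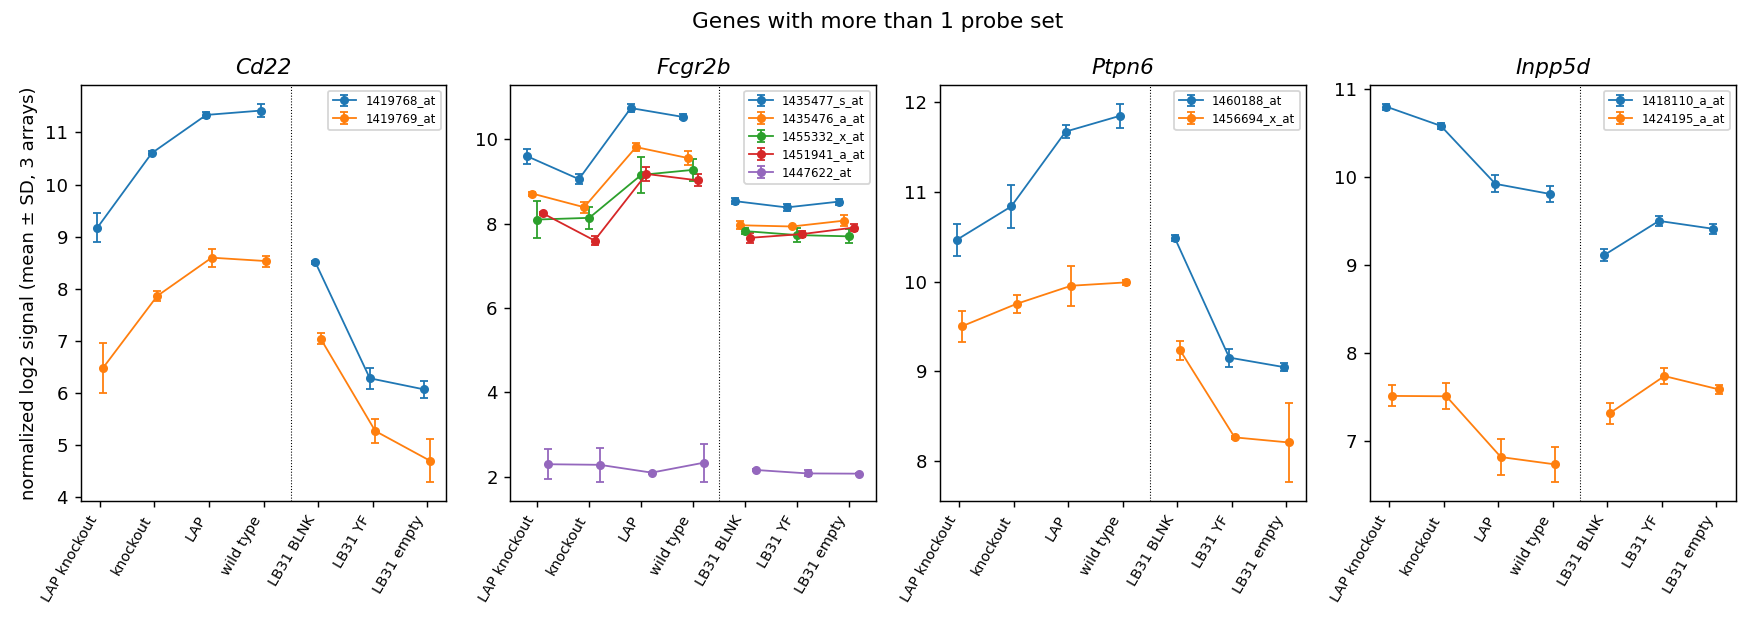
Group means of every probe set of Cd22, Fcgr2b, Ptpn6 and Inpp5d. The y axis is the normalized log2 signal with the SD over 3 arrays, and lines join the groups of marrow and of LB31; the Inpp5d probe sets part between marrow and line, with 10.58 and 7.504 in knockout marrow and 9.41 and 7.58 in empty-vector cells, and the fifth Fcgr2b probe set stays between 2.07 and 2.33.

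Other genes of the inhibitory route were taken from lists with the brightest probe set of each gene. These lists too were chosen with earlier results of these data known, so their counts are descriptive. Of other inhibitory receptors and their ligands, 16 genes were on the array and 14 were tested in marrow. In knockout against wild-type marrow 5 of these were lower and 0 higher (median -0.20), in LAP against wild type 0 were called by limma and 4 had an unadjusted p under 0.05 (median -0.04), and in LAP knockout against wild type 9 were lower and 1 higher (median -0.74). Over all probe sets tested, 6.45% were called lower and 6.24% higher in knockout against wild type. These shares were 1.36% and 1.23% in LAP, and 12.6% and 12.6% in LAP knockout, each against wild type. The named changes with both alterations were those of Cmah, which makes a sialic acid form that mouse CD22 binds, at -3.34, of the Fc receptor-like gene Fcrl1, at -3.04, and of Cd200, a ligand of an inhibitory receptor, at -3.01.

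In LAP knockout against knockout marrow 6 of the 14 were lower and 0 higher, among them Fcrl1 at -1.92 and Fcrla at -1.84. Of all tested, 3.17% were called lower and 2.03% higher there. In LAP knockout against LAP marrow 8 were lower and 0 higher, where 9.86% and 11.3% of all tested were. The difference of the LAP effects was called for 5, all lower, where 0.85% of all tested were called lower. Among them were Fcrla at -1.60, Fcrl1 at -1.41, Cmah at -1.22 and Siglecg, an inhibitory lectin of B cells, at -1.01. The median of the 14 in this contrast was -0.63, against 0.021 over all probe sets.

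In LB31 12 of these genes were tested. With BLNK against the empty vector 3 were higher and 3 lower, the largest changes among those called being the rises of Pdcd1, which encodes PD-1, and of Cmah, at 1.12. Pdcd1 averaged 4.46 in BLNK cells, against 2.43 in empty-vector cells, where it was below the 40th percentile on all arrays, so that its change has no exact size. Fcrla at 1.37 and Tnfrsf14 at -1.20 were not called (adjusted p = 0.0819 and 0.333). With YF 0 were called by limma, with 2 at an unadjusted p under 0.05, and in BLNK against YF cells 2 were higher and 2 lower, with St6gal1, an enzyme that makes ligands of CD22, higher by 0.66. Of 16 genes tested in empty-vector LB31, 12 were lower and 1 higher than in knockout marrow, and the same numbers held against LAP knockout marrow. Over all probe sets, 5.82% were called lower and 5.57% higher with BLNK, and 0.112% and 0.115% with YF. In BLNK against YF cells these shares were 3.84% and 2.5%. In empty-vector LB31 they were 27.6% and 29.3% against knockout and 27.1% and 28.7% against LAP knockout marrow.

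Of 10 other phosphatases and kinases, 1 was higher and 3 were lower in knockout against wild-type marrow, and 2 were higher and 3 lower with both alterations. Inppl1, which encodes SHIP-2, was the only gene of the 3 lists called with LAP alone, at 0.68 (adjusted p = 0.0354). In LAP knockout marrow 0 were higher and 3 lower than in knockout marrow, 2 were higher and 3 lower than in LAP marrow, and 0 were called in the difference of the LAP effects, with 2 at an unadjusted p under 0.05. With BLNK 2 were higher and 4 lower, with the tyrosine phosphatase gene Ptpn22 at -1.03 and the diacylglycerol kinase gene Dgka at -0.78. In BLNK against YF cells 0 were higher and 3 lower, and with YF against the empty vector 0 were called, with 2 at an unadjusted p under 0.05. Empty-vector LB31 had 2 higher and 8 lower than knockout marrow, and 2 higher and 6 lower than LAP knockout marrow. The shares over all probe sets are those given for the receptors above. With both alterations 12.6% of all were called higher, and 29.3% in empty-vector LB31 against knockout marrow. Such small counts out of 10 are not read as a result about this list.

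Of 12 other adaptors and ubiquitin ligases, 2 were higher and 3 lower in knockout against wild-type marrow, with the adaptor gene Lat2 at -2.41, the adaptor gene Sit1 at 2.39 and Ubash3a, a regulator of antigen receptor signalling, at 1.84. With both alterations 4 were higher and 4 lower, with Lat2 at -3.28. LAP alone gave 0 calls, with 3 at an unadjusted p under 0.05. LAP knockout against knockout gave 2 higher and 2 lower, and LAP knockout against LAP gave 5 higher and 6 lower. The difference of the LAP effects was called for 0, with 7 at an unadjusted p under 0.05. With BLNK 1 was higher and 2 lower than with the empty vector, with YF 0 were called and 2 had an unadjusted p under 0.05, and BLNK against YF gave 1 higher and 1 lower. Empty-vector LB31 had 3 higher and 8 lower than knockout marrow, and 1 higher and 7 lower than LAP knockout marrow. The same shares over all probe sets stand beside these counts, which are likewise not read as a result about the list.

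For each gene the most similar patterns over the 7 group means were found among 14654 other genes, each centred on its own mean, by the mean absolute difference on the log2 scale. Btla was closest to H2-Eb1 (0.341), a class II gene that is also in the list of immature and mature B-cell markers, and to Tlr1 (0.424). H2-Eb1 averaged 7.48 in LAP knockout, 10.00 in knockout, 11.72 in LAP and 12.29 in wild-type marrow, but 4.97 in BLNK cells, against 5.05 in empty-vector cells. Cd22 was closest to Rasgrp3 (0.292) and B3gnt5 (0.409), both of which were also higher in BLNK cells by their means, at 4.74 and 6.46, than in empty-vector cells, at 3.12 and 5.32.

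Cd72 was closest to Lpxn (0.178) and Igsf9 (0.182), Fcgr2b to Tsga10 (0.165) and Arhgef3 (0.171), and Ptpn6 to Otud1 (0.146) and Pou6f1 (0.162). Lax1 was closest to Lrrn3 (0.199) and Cldn4 (0.236). The smallest differences were those of Inpp5d, with Sft2d2 (0.06) and Rab8b (0.07), in a gene whose own group means cover the narrowest range of the 7. These likenesses describe 7 means and were not tested.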

How the data were processed

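Sorted marrow B-lineage cells and the LB31 line were measured on Affymetrix arrays from 100 ng of total RNA, 21 arrays in 7 groups of 3, grouped by their titles. The deposited values are probe set intensities on a linear scale, and per the submitters' processing notes the authors made them with MAS5; whether arrays were scaled is not stated, and their medians differed. The number of arrays limits the precision.

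From these, log2(signal + 4) was taken and all arrays were quantile normalized together, which removes any overall difference in RNA between groups. The 64 control probe sets were left out. A probe set was tested if it lay above its array's 40th percentile (about 4.06 log2) on at least 3 arrays of the fit. limma 3.58.1 in R 4.3.3 (lmFit, eBayes with trend, two-sided) fitted group means with no covariate, separately to the 12 marrow arrays, the 9 LB31 arrays and, for line against marrow, all 21. Benjamini-Hochberg adjustment covered all probe sets tested, 11 comparisons each on its own. The procedure was tested on simulated data.

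Names came from the platform annotation, which gave 1 symbol to 34945 probe sets, several to 932 and none to 9160; 34741 matched RefSeq. Named genes were the members, up to 4 called genes of largest change per comparison and list, and the 2 most similar patterns per member. Markers and the 3 lists (other receptors and ligands, phosphatases and kinases, adaptors and ligases) were used with the brightest probe set; Lilrb4a, Fcrl5 and Lyn had no match. The members and lists were chosen with earlier results of these data known.

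Same-numbered arrays of different groups were checked for pairing: their deviations from group means correlated at -0.08 to 0.215 over 18 pairs in marrow (1 over 0.1) and at -0.026 to 0.016 over 9 pairs in LB31, so the numbers were not taken to pair samples. Alternatives were the values as deposited, median centring, normalization within the fitted arrays, a pseudocount of 16, no filter, 1 probe set a gene, the replicate block and leaving out each array.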

Additional observations from a re-analysis of the deposited data

Results flagged for a closer look

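In 3 cases the change with the LAP transgene differed between marrow with and without the knockout label, by the test of the difference itself in limma. For Btla, LAP knockout minus knockout was lower than LAP minus wild type, with a difference of -2.66 (adjusted p = 0.000122). For Cd22 it was -1.35 in the brightest probe set (adjusted p = 0.000686) and -1.45 in the second (adjusted p = 0.0149). Leaving out 1 array at a time, Btla stayed between -2.84 and -2.43 and the brightest Cd22 probe set between -1.47 and -1.20, with adjusted p of at most 0.000947 and 0.00409. The immature and mature B-cell markers moved in the same contrast, and 2 of 5 plasmacytoid dendritic markers were called lower in it. The part of these cells was not tested.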

How the results depend on the processing

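Of the members' values recomputed under the alternatives, 1407 kept direction and side of the threshold, 23 lost a call, 12 gained one and 27 changed sign. Of the 27, 1 was of a called value, that of Fcgr2b 1451941_a_at in empty-vector LB31 against knockout marrow, which became -0.216 with the values as deposited; the cause was not tested. With 1 probe set a gene, which by construction leaves 7, the members called were 6 in knockout against wild type (11 otherwise), 7 in LAP knockout against wild type (13), 6 against LAP (12), 5 in BLNK against YF (8), and 7 and 6 in empty-vector LB31 against knockout (11) and LAP knockout marrow (10). Median centring gave 1 call for YF against the empty vector (0 otherwise), Ptpn6. The second Inpp5d probe set in empty-vector LB31 changed sign and became called lower as deposited, at -0.457 against knockout (adjusted p = 0.0324) and -0.474 against LAP knockout marrow (adjusted p = 0.0269). Uncalled values changed sign, without becoming called, as follows. In LAP against wild type, Cd72 was -0.045 and Inpp5d -0.025 as deposited, and -0.026 and -0.006 median centred. In the difference of the LAP effects, Lax1 was 0.057 as deposited, 0.02 median centred and 0.057 when normalized within the fitted arrays, and ran from -0.126 to 0.151 with 1 array left out. In YF against the empty vector, Fcgr2b was 0.235 as deposited and 0.132 median centred, and Lax1 ran from -0.007 to 0.672 over arrays left out. In BLNK against YF, Fcgr2b was -0.073 and Lax1 -0.139 as deposited, Lax1 was -0.02 median centred and ran from -0.134 to 0.125. In BLNK against the empty vector, Fcgr2b ran from -0.026 to 0.048 and Lax1 from -0.002 to 0.677. In empty-vector LB31, Lax1 ran from -0.39 to 0.289 against LAP knockout marrow, the highest without empty-vector array 3. Calls over all probe sets, with the values as deposited, numbered 6910 in knockout against wild type (3825 otherwise), 11804 in LAP knockout against LAP (6389), 212 in the difference of the LAP effects (355), 736 in BLNK against the empty vector (3360), 327 in YF against it (67) and 783 in BLNK against YF (1869). Median centring gave 1833 for YF and 1080 for BLNK against YF, and no filter gave 24 for YF. With 1 probe set a gene they numbered 2284 in knockout and 4162 in LAP knockout against wild type (7593), 1027 in LAP knockout against knockout (1567), 3601 against LAP, 2059 in BLNK against the empty vector, 1172 in BLNK against YF, and 8695 and 8614 in empty-vector LB31 against knockout (19213) and LAP knockout marrow (18847). Leaving out 1 array gave 2511 to 3197 in knockout against wild type, 247 to 770 in LAP against wild type (782), 812 to 2178 in LAP knockout against knockout, 207 to 578 in the difference of the LAP effects, 2201 to 4945 in BLNK against the empty vector, 1078 to 1273 in BLNK against YF and 1 to 2068 in YF against the empty vector, the highest without empty-vector array 1. With the replicate number as a block, Ptpn6 was called in LAP knockout against knockout (adjusted p = 0.0362) and Cd72 in the difference of the LAP effects (adjusted p = 0.0136), YF against the empty vector had 4 calls over all probe sets, and no other member changed its call; same-numbered arrays share only a number. Signals near the dim end, as those of Lax1 in LAP and empty-vector arrays, limit how low a level can be measured.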
